A study of Oryza sativa Japonica Group with 24 samples.

Results

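The basic helix-loop-helix (bHLH) genes of rice (Oryza sativa Japonica) other than bHLH6 were followed in messenger RNA libraries of seedling roots and shoots. They were chosen by annotation, with earlier results of these data known. Of the 57668 features in the deposited table, 157 have a description that contains helix-loop-helix, once 3 loci that also match are left out. The 3 are LOC_Os01g72370, LOC_Os03g26210 and LOC_Os10g42430, and no count or ranking of the bHLH genes here includes them. The bHLH6 gene is not among the 157. Of the 157, 116 carry HLH as their transcription factor family and 41 carry the description alone. Only 11 could be given a name from the RefSeq gene table, and the others are called by the locus identifier of the file. Positions are those of the deposited table, whose genome build is not given in the sources used here.

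bHLH proteins bind DNA as dimers, mostly at E-box sequences. The basic region contacts the DNA, and the helix-loop-helix joins it to a partner that is often another bHLH protein. In rice, members of the family are known for roles in the iron deficiency response, jasmonate signalling, light signalling, stomata, root hairs, axillary meristems and the anther tapetum.

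Wild type rice (WT), a bHLH6 overexpression line (bHLH6-OV) and a mutant with a T-DNA in the phosphate sensing gene SPX4 (spx4 T-DNA, here spx4) were supplied with 200 µM phosphate (high Pi), and WT also with 10 µM (low Pi). Seedlings were 7 days old when the supply began, and it lasted 2 weeks. Roots and shoots were sampled from each, which makes 8 groups of 3 libraries, 24 in all, and each library holds 3 pooled seedlings. Each genotype is 1 line, the labels do not name the promoter of the overexpression construct, and no library of the changed genotypes at low Pi was analysed here.

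Libraries held 21.0 to 29.6 M reads assigned to genes. The bHLH6 gene stood at 115 to 164 FPKM in bHLH6-OV roots and 3.24 to 5.66 in WT roots, and at 85.8 to 120 in bHLH6-OV shoots and 5.21 to 5.29 in WT shoots. In spx4 bHLH6 stood at 1.58 to 8.07 FPKM in roots and 14.5 to 32.8 in shoots. At low Pi it stood at 1.39 to 17.2 FPKM in roots and 9.25 to 83.1 in shoots. Its shoot levels in spx4 and at low Pi thus lay above WT, and their part in the shoot results was not tested. SPX4 stood at 5.21 to 6.73 FPKM in spx4 roots and 11.1 to 11.4 in WT roots, and at 6.82 to 8.6 in spx4 shoots and 12.6 to 15.6 in WT shoots. FPKM counts fragments per kilobase, scaled to the library. Photosystem and chlorophyll-binding genes (42 listed), which mark green tissue, summed to 10200 to 44500 FPKM in shoot libraries and 27.6 to 470 in root libraries. Within roots that sum was 134 to 169 in WT, 360 to 470 in bHLH6-OV, 157 to 354 in spx4 and 27.6 to 55.6 at low Pi, and its part in the root results was not tested. Of the 16 such genes tested in roots, 13 were higher in bHLH6-OV, none passed in spx4, and 13 were lower and 1 higher at low Pi. Within shoots the sum was 31300 to 39300 in WT, 18100 to 29500 in bHLH6-OV, 38000 to 44500 in spx4 and 10200 to 30200 at low Pi. Of 23 such genes tested in shoots, 5 were lower and 1 higher at low Pi. Replicate 1 of the WT low Pi shoots stood apart: 6 of the 69 bHLH genes tested in shoots were at least 2-fold lower in it than the mean of replicates 2 and 3, and 0 were higher. Between replicates 2 and 3 the same count was 0 lower and 1 higher. The share of all genes that differed so is not given here. Over all genes with enough reads, chi-square per degree of freedom, about 1 for counting noise alone, was 113 and 127 for replicate 1 against 2 and 3. Between replicates 2 and 3 it was 11.1.

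The family as a whole was spread over a wide range of levels in both tissues. A gene was tested in a tissue when its mean over the 12 libraries reached 1 FPKM, which 95 bHLH genes did in roots and 69 in shoots. Of these, 62 were tested in both tissues, 33 in roots alone and 7 in shoots alone, and 55 were tested in neither. The mean reached 10 FPKM for 40 genes in roots and 32 in shoots. The levels of all 157 genes summed to 1270 to 1610 FPKM in root libraries and 1260 to 1730 in shoot libraries, so the sums of the tissues overlap.

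The most abundant bHLH genes differed between roots and shoots. In WT roots at high Pi the highest was LOC_Os05g38140 (chromosome 5, 22371205 to 22373569, plus strand), at 154, 140 and 152 FPKM in replicates 1, 2 and 3. The next were LOC_Os04g35010 at 93.4, 87.8 and 91.4 FPKM and LOC_Os08g04390 at 73.3, 75.0 and 79.5 FPKM. In WT shoots at high Pi the highest was LOC_Os03g56950 (chromosome 3, 32432456 to 32435845, plus strand), at 158, 137 and 176 FPKM. LOC_Os08g04390 reached 139, 126 and 148 FPKM in the same shoots and LOC_Os10g40740 127, 125 and 132 FPKM. The range of LOC_Os08g04390 in shoots overlaps with those of both others, while LOC_Os03g56950 lay wholly above LOC_Os10g40740.

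Most tested bHLH genes differed in level between WT roots and WT shoots. Over all 24 libraries, 97 were tested, of which 69 were higher in roots and 22 higher in shoots (limma, Benjamini-Hochberg adjusted p under 0.05, here termed a call). Calls made up 84.2% of all genes tested in that comparison (45.3% higher in roots and 38.9% higher in shoots), and 93.8% of the bHLH genes tested. The median log2 difference, root over shoot, was 1.46 over the bHLH genes and 0.1 over all genes tested. The difference was at least 2-fold for 52 genes higher in roots and 16 higher in shoots. When values were rescaled to TPM, which gives every library 1 common total, the median over all genes rose to 0.56, and 73 bHLH genes were higher in roots and 19 in shoots.

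Some bHLH genes stood far lower in 1 tissue than in the other. LOC_Os03g56950 was at 1.01, 1.03 and 0.873 FPKM in WT roots, against 137 to 176 in shoots (log2 difference −6.32, adjusted p = 1.57e-14). LOC_Os10g40740 was at 5.5, 5.29 and 4.51 FPKM in roots (−4.41, adjusted p = 7.16e-19), and LOC_Os03g43810 at 2.39, 2.95 and 2.9 in roots and 95.2, 83 and 89.5 in shoots (−4.59, adjusted p = 5.94e-16). In the other direction, LOC_Os01g11910 was at 75.3, 67.4 and 72.6 FPKM in WT roots and 0.478, 0.328 and 0.387 in WT shoots (5.70, adjusted p = 1.93e-18). RAI1 (LOC_Os03g04310), known for its place in immune signalling downstream of the small GTPase OsRac1, was at 41.7, 47.8 and 48.0 FPKM in WT roots and 0.0245 to 0.0549 in WT shoots (5.50, adjusted p = 1.17e-20). LOC_Os04g31290 was at 32.7, 28.8 and 28.8 FPKM in WT roots, and 2 of the 3 WT shoot libraries held none of its reads. The root and shoot ranges of these genes did not overlap.

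**Figure D1:**
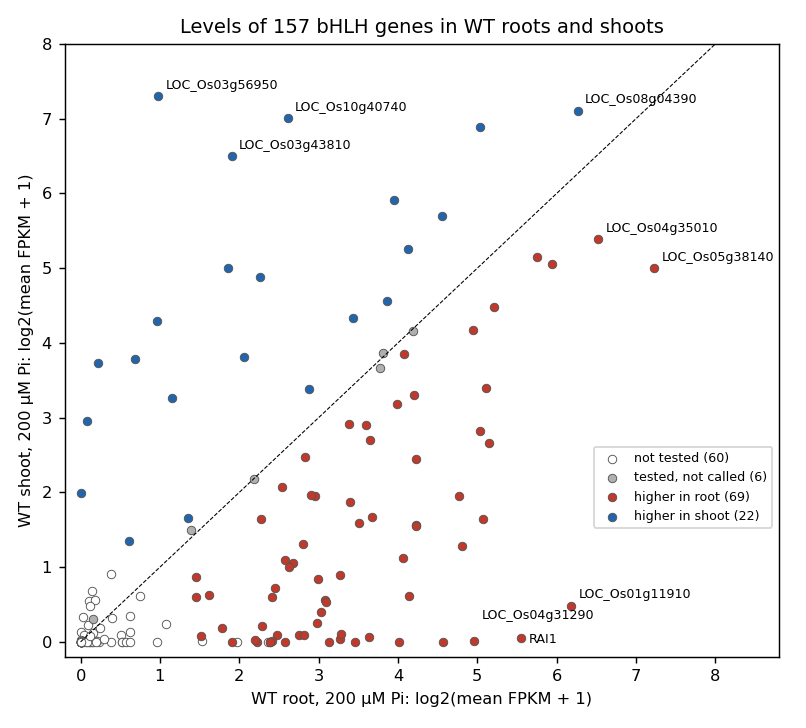
Mean level of each of the 157 bHLH genes in WT shoots against WT roots at 200 µM Pi, both as log2(FPKM + 1), n = 3 libraries per tissue. Red points were called higher in roots (69), blue points higher in shoots (22), grey points were tested and not called (6), and open points were not tested (60). The dashed line marks equal levels, and most coloured points lie below it.

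In roots, overexpression of bHLH6 moved 28 of the 95 bHLH genes tested, 12 higher and 16 lower than WT at high Pi, beside 18% of all 22090 genes tested (7.62% higher and 10.4% lower). The median log2 fold change was −0.01 over the bHLH genes and −0.02 over all genes. The spx4 mutation moved 7, of which 1 was higher and 6 lower, beside 2.46% of all genes (0.634% higher and 1.82% lower). Low Pi moved 42 of the 95 in WT roots, 9 higher and 33 lower, beside 31.4% of all genes (15.3% higher and 16.1% lower), with a median of −0.14 over the bHLH genes and 0.01 over all genes. These 3 comparisons share the WT high Pi libraries, so their values are not independent of each other. Log2 fold changes throughout are of FPKM + 1, which understates the change of genes at low levels.

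**Figure D2:**
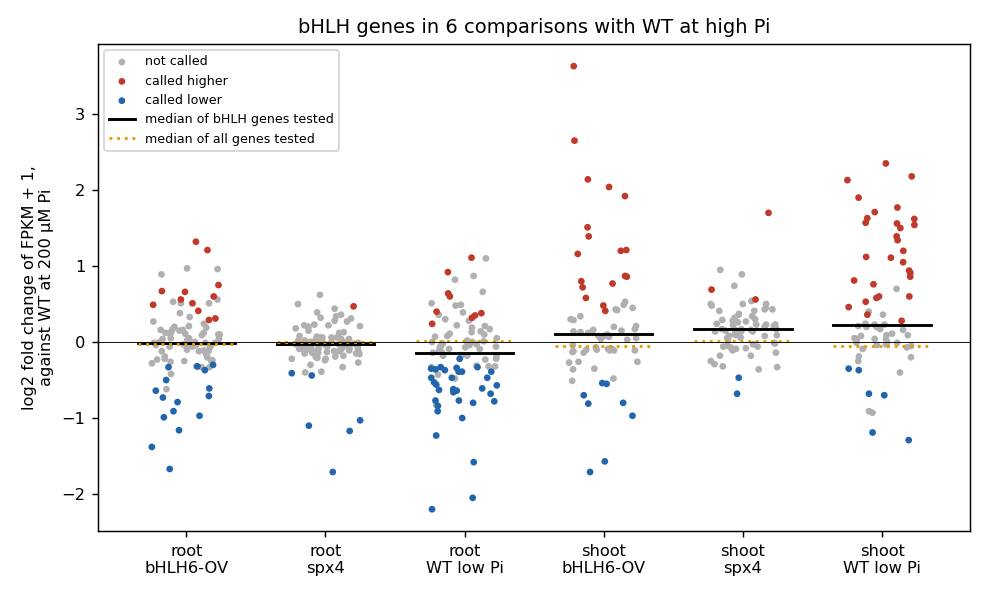
Log2 fold change of FPKM + 1 against WT at 200 µM Pi of the same tissue for every bHLH gene tested (95 in roots, 69 in shoots), 1 point per gene, n = 3 libraries per group. Red and blue points are calls, the black bar is the median of the bHLH genes and the dotted bar that of all genes tested. In WT low Pi roots 33 of 42 calls lie below 0, and in WT low Pi shoots 30 of 36 lie above it.

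The 4 bHLH genes with the lowest log2 fold changes in bHLH6-OV roots were also low in roots of spx4 and of WT at low Pi, while the fifth, LOC_Os04g54900, was not. The 3 comparisons share the WT libraries, and the share of all genes called in all 3 is not given here. Whether this overlap is particular to the family was therefore not tested. The root means of LOC_Os12g32400 (1.37 FPKM) and LOC_Os05g46370 (1.19) reached the filter only through the WT high Pi libraries. Their lower calls against WT are therefore tied to the filter. LOC_Os12g32400 (chromosome 12, 19546556 to 19547564, plus strand) stood at 4.24, 4.57 and 3.64 FPKM in WT. It stood at 0.968, 0.46 and 0.451 FPKM in bHLH6-OV, at 1.05, 0.32 and 0.424 in spx4 and at 0.0584, 0.0604 and 0.233 at low Pi, where the 3 libraries held 1, 1 and 4 of its reads. Every library of the other 3 groups lay below every WT library. Its log2 fold changes were −1.67 ± 0.17 (SE, adjusted p = 9.69e-05), −1.71 ± 0.17 (adjusted p = 0.000109) and −2.20 ± 0.17 (adjusted p = 4.87e-06). No read of this gene was found in any of the 12 shoot libraries.

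LOC_Os04g31290 (chromosome 4, 18720466 to 18722735, plus strand) was the most abundant of this set. From 28.8 to 32.7 FPKM in WT roots it went to 10.7, 12.5 and 9.84 FPKM in bHLH6-OV, 11.7, 12.2 and 14.6 in spx4 and 5.46, 7.28 and 6.84 at low Pi. These means are 2.74-fold, 2.35-fold and 4.61-fold below that of WT, and no library overlaps with WT. The log2 fold changes were −1.38 ± 0.12 (adjusted p = 2.09e-05), −1.17 ± 0.12 (adjusted p = 0.000105) and −2.05 ± 0.12 (adjusted p = 3.95e-07).

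LOC_Os05g46370 (chromosome 5, 26879444 to 26881353, plus strand) stood at 3.1, 2.2 and 3.44 FPKM in WT roots. In bHLH6-OV it stood at 0.85, 0.798 and 0.57 FPKM, in spx4 at 0.925, 0.65 and 0.871, and at low Pi at 0.166, 0.279 and 0.455. All were below WT, and the low Pi libraries were below those of both changed genotypes too. Its log2 fold changes were −1.16 ± 0.14 (adjusted p = 0.000237), −1.10 ± 0.14 (adjusted p = 0.000635) and −1.58 ± 0.14 (adjusted p = 9.79e-06).

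APG (LOC_Os05g04740, chromosome 5, 2246835 to 2248878, plus strand), known from rice grain as a negative regulator of grain length that pairs with an atypical bHLH protein, followed the same direction. It stood at 4.42, 3.79 and 3.46 FPKM in WT roots, 1.39, 1.55 and 1.44 in bHLH6-OV, 1.47, 1.2 and 1.51 in spx4 and 1.68, 2.03 and 1.9 at low Pi. No library of those 3 groups reached the WT range. Here low Pi gave the smallest of the 3 changes, −0.77 ± 0.10 (adjusted p = 0.000143), beside −0.99 ± 0.10 in bHLH6-OV (adjusted p = 5.55e-05) and −1.03 ± 0.10 in spx4 (adjusted p = 5.15e-05). APG was under the filter in shoots and was not tested in that tissue alone. Its mean there was 0.16 FPKM in WT at high Pi and 2.01 (1.32 to 2.6) at low Pi. The calls of these 4 genes in the 3 root comparisons held when any 1 library was left out and under the other settings tried. In bulk tissue, fewer cells that express a gene and less of its RNA per cell cannot be told apart.

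LOC_Os04g54900 stood at 14.4, 15.1 and 16 FPKM in WT roots and 4.83, 8.64 and 9.02 in bHLH6-OV (2.01-fold lower, −0.97 ± 0.28, adjusted p = 0.0366), wholly below WT. In spx4 roots it stood at 10.7, 17.4 and 16 FPKM (−0.07, adjusted p = 0.968) and at low Pi at 30, 13.5 and 25.9 (0.51, adjusted p = 0.197), and both groups overlap with WT. Its bHLH6-OV call ended with no filter, with voom and without any WT library or bHLH6-OV replicate 1 or 2.

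**Figure D3:**
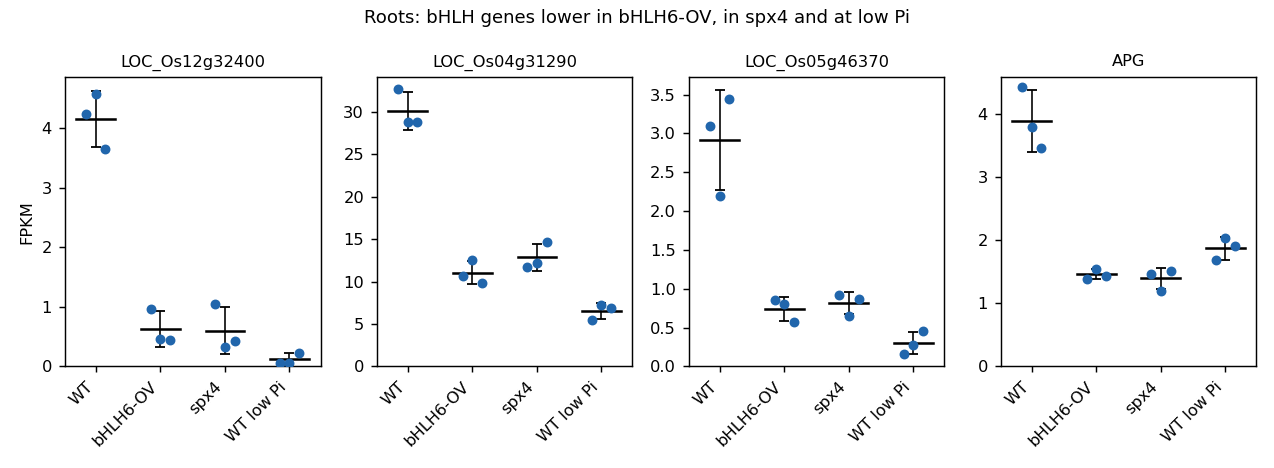
FPKM of 4 bHLH genes in each root library (points), with the mean (bar) and SD (whiskers, cut at 0) of 3 libraries per group; each panel has its own linear axis from 0. The libraries of bHLH6-OV, spx4 and WT at low Pi all lie below the 3 WT libraries at high Pi.

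Genes of iron uptake were set beside these, since part of the family acts in the iron deficiency response. The list was chosen with earlier results of these data known, so it is no independent check. All 5 named in the RefSeq table and tested in roots fell in each of the 3 comparisons: the nicotianamine synthases NAS1 and NAS2, the aminotransferase NAAT1, the iron-phytosiderophore transporter YSL15 and the iron transporter IRT1. The log2 fold changes ran from −5.27 (NAS2) to −2.64 (IRT1) in bHLH6-OV, from −3.56 (NAS2) to −1.92 (IRT1) in spx4 and from −6.00 (YSL15) to −3.28 (IRT1) at low Pi. In shoots 2 of the 5 were tested, and both were lower at low Pi, NAAT1 by a log2 change of −3.73 and IRT1 by −0.48. Neither passed in bHLH6-OV or spx4 shoots.

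LOC_Os11g38870 (chromosome 11, 23132264 to 23137598, minus strand) was higher in all 3 root comparisons. It stood at 1.54, 1.75 and 1.96 FPKM in WT roots, 3.19, 3.19 and 3.62 in bHLH6-OV, 2.73, 2.84 and 2.8 in spx4 and 2.2, 2.28 and 2.21 at low Pi. Each of these groups lay wholly above WT. The log2 fold changes were 0.66 (adjusted p = 0.000288), 0.47 (adjusted p = 0.00777) and 0.24 (adjusted p = 0.0429), and the last of these calls ended under TPM scaling and when any of 9 root libraries was left out, among them each of the WT low Pi libraries. Its fold changes were larger in shoots, where it stood at 0.86, 0.983 and 0.636 FPKM in WT and at 4.8, 4.51 and 3.32 in bHLH6-OV (1.51, adjusted p = 0.000445). At low Pi the shoot libraries held 3.64, 5.63 and 4.18 FPKM (1.57, adjusted p = 0.000143).

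Among the bHLH genes higher in bHLH6-OV roots, LOC_Os01g67480 was abundant in WT already. It stood at 55.4, 61.6 and 63.7 FPKM in WT and 92.1, 92.4 and 124 in bHLH6-OV, which is 1.71-fold higher (log2 0.75 ± 0.15, adjusted p = 0.00654). At low Pi it was lower than WT, at 33.8, 48.9 and 38.9 FPKM (−0.57, adjusted p = 0.0143), a call that ended without WT replicate 3 or WT low Pi replicate 1. LOC_Os04g41570 showed the same pair of directions, with 13.4, 13.0 and 11.6 FPKM in WT, 24.9, 17.8 and 19.9 in bHLH6-OV (0.67 ± 0.12, adjusted p = 0.0037) and 7.95, 10.4 and 8.24 at low Pi (−0.47, adjusted p = 0.0126, lost without WT replicate 1). LOC_Os07g05010 and LOC_Os10g40740 also rose in bHLH6-OV roots, by 0.60 (adjusted p = 0.00704) and 0.56 (adjusted p = 0.00838), and LOC_Os08g39630 by 0.41 (adjusted p = 0.00591).

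The 2 highest log2 fold changes in bHLH6-OV roots rested on uneven replicates. LOC_Os09g28210 stood at 4.37, 4.95 and 3.67 FPKM in WT and 9.32, 7.84 and 24.5 in bHLH6-OV, so replicate 3 carries much of the log2 fold change of 1.32 ± 0.40 (adjusted p = 0.0396). LOC_Os01g56690 stood at 5.21, 7.13 and 3.92 FPKM in WT and 13.1, 9.95 and 19.0 in bHLH6-OV (1.21 ± 0.33, adjusted p = 0.0284). The groups do not overlap in either gene, and each call ended when replicate 3 of bHLH6-OV, replicate 1 of bHLH6-OV, or WT replicate 1 or 3 was left out (for LOC_Os09g28210 also WT replicate 2).

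Of the genes named for the highest rises at low Pi in roots, 4 fell in bHLH6-OV roots, and LOC_Os07g47960 did not pass there. Both comparisons share the WT libraries, and the matching share over all genes is not given here. Whether this pattern is particular to the family was not tested. RAI1 stood at 29.1, 30.9 and 23.2 FPKM in bHLH6-OV roots and 61.5, 58.7 and 61.9 at low Pi, below and above the 41.7 to 48.0 of WT. Its log2 fold changes were −0.71 ± 0.11 (adjusted p = 0.00168) and 0.40 ± 0.11 (adjusted p = 0.02), the second of which ended without WT replicate 1 or WT low Pi replicate 1 or 3. LOC_Os03g55220 stood at 7.47, 8.95 and 9.67 FPKM in WT, 5.7, 4.96 and 3.34 in bHLH6-OV (−0.79, adjusted p = 0.00567) and 13.5, 11.9 and 15.8 at low Pi (0.60, adjusted p = 0.0127, lost without WT replicate 1 or WT low Pi replicate 3). LOC_Os09g29360 stood at 6.74, 7.29 and 7.49 FPKM in WT, 4.44, 5.05 and 4.83 in bHLH6-OV (−0.50, adjusted p = 0.0163, lost without WT replicate 2 or 3 or bHLH6-OV replicate 1) and 16.0, 12.4 and 15.2 at low Pi (0.92 ± 0.12, adjusted p = 0.000227). LOC_Os04g50090 rose from 1.8, 1.79 and 2.0 FPKM in WT to 3.78, 3.08 and 3.54 at low Pi (0.64, adjusted p = 0.000518), while its lower value in bHLH6-OV (−0.32, adjusted p = 0.0412) was lost without any 1 of 8 root libraries. The spx4 libraries of these 4 genes overlapped with WT, and none of the 4 passed in spx4.

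Low Pi gave further root calls for genes that did not pass in bHLH6-OV or spx4 roots, and the difference between the comparisons was not tested. LOC_Os07g47960 rose from 3.75, 3.23 and 3.81 FPKM to 11.4, 8.04 and 7.75 (2.52-fold, log2 1.11 ± 0.21, adjusted p = 0.00213). LOC_Os07g39940 fell from 6.83, 7.55 and 8.98 FPKM to 2.99, 2.62 and 2.61 (2.84-fold, −1.23 ± 0.14, adjusted p = 7.36e-05), and none of its reads were found in shoots. LOC_Os01g11910, which had the highest log2 difference of FPKM + 1 between WT roots and shoots, fell from 75.3, 67.4 and 72.6 FPKM to 26.3, 43.6 and 38.2 (1.99-fold, −1.0 ± 0.16, adjusted p = 0.000675). In each of these 3 genes the low Pi libraries lay wholly outside the WT range.

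In roots, the levels of bHLH6-OV and spx4 were also set against each other. Of the 95 bHLH genes 9 were called, 5 higher and 4 lower in spx4, beside 6.58% of all genes. Replicate numbers pair the samples in this comparison, by the values and not the labels. With the replicate as a block in the fit to all root libraries the count was 5, while a block in a fit to those 6 libraries gave 17. The clearest difference was LOC_Os04g41570, at 11.4, 10.8 and 10.8 FPKM in spx4 and 17.8 to 24.9 in bHLH6-OV (−0.85 ± 0.12, adjusted p = 0.00121). The 4 genes that were low in both genotypes did not pass here: the log2 differences, spx4 over bHLH6-OV, were −0.04 for LOC_Os12g32400, 0.20 for LOC_Os04g31290, 0.06 for LOC_Os05g46370 and −0.04 for APG, with SE of 0.17, 0.12, 0.14 and 0.10.

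In shoots, overexpression of bHLH6 moved 26 of the 69 bHLH genes tested, 18 higher and 8 lower, beside 31.3% of all 19990 genes tested (14% higher and 17.3% lower). The median log2 fold change was 0.10 over the bHLH genes and −0.05 over all genes. Under TPM scaling the median of all genes became 0.15, and the count became 27 higher and 7 lower. The spx4 mutation moved 5 bHLH genes, 3 higher and 2 lower, beside 2.14% of all genes (0.725% higher and 1.42% lower). Low Pi moved 36 in WT shoots, 30 higher and 6 lower, beside 48.2% of all genes (22.2% higher and 26% lower), with a median of 0.23 over the bHLH genes and −0.05 over all genes. Without replicate 1 of the WT low Pi shoots, the counts were 33 higher and 8 lower at low Pi, 23 higher and 10 lower in bHLH6-OV, and 8 higher and 2 lower in spx4. The 3 shoot comparisons share the WT high Pi shoot libraries.

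LOC_Os01g01840 (chromosome 1, 455512 to 460716, plus strand) had the highest log2 fold change of FPKM + 1 in the family. It stood at 5.71, 4.7 and 9.83 FPKM in WT shoots and 88.6, 124 and 69 in bHLH6-OV, which is 13.9-fold higher (log2 3.63 ± 0.31, adjusted p = 1.23e-05). It stood at 22.3, 22.9 and 24.7 FPKM in spx4 (1.70, adjusted p = 0.014) and at 18.0, 36.3 and 16.2 at low Pi (1.63, adjusted p = 0.00136). All libraries of these 3 groups lay above WT, and those of spx4 and low Pi lay below bHLH6-OV. The spx4 call ended without WT replicate 1 or 2 or spx4 replicate 2 or 3. In roots the gene was close to absent, with at most 6 reads in a library. Its neighbour LOC_Os01g01870, the other bHLH gene of a 25.7 kb stretch and named here for its position, stood at 28.0, 28.3 and 29.4 FPKM in WT shoots and 27.3, 29.9 and 30.2 in bHLH6-OV (0.03 ± 0.06, adjusted p = 0.783).

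Further genes that were low in WT shoots had FPKM of several units in bHLH6-OV, and 3 of them had higher ratios of means than LOC_Os01g01840: 58.8-fold for LOC_Os01g09990, 29.5-fold for LOC_Os09g34330 and 22.8-fold for LOC_Os08g36740. LOC_Os09g34330 stood at 0.385, 0.165 and 0.162 FPKM in WT and 9.92, 5.31 and 5.8 in bHLH6-OV (2.65 ± 0.29, adjusted p = 7.13e-05), with 3.72, 1.85 and 1.52 at low Pi (1.39, adjusted p = 0.00241). LOC_Os01g09990 stood at 0.0916, 0.0262 and 0.0771 FPKM in WT shoots, where its libraries held 4, 1 and 3 reads, and at 2.78, 3.37 and 5.32 in bHLH6-OV, where they held 143, 143 and 197 (2.14 ± 0.18, adjusted p = 9.25e-06). LOC_Os08g36740 stood at 0.0556, 0.381 and 0.0624 FPKM in WT and 3.58, 3.21 and 4.59 in bHLH6-OV (2.04 ± 0.21, adjusted p = 4.02e-05). LOC_Os01g11910, the root-biased gene, stood at 0.478, 0.328 and 0.387 FPKM in WT shoots and 4.18, 4.35 and 4.26 in bHLH6-OV (1.92 ± 0.14, adjusted p = 2.95e-06). In each of these 4 genes every bHLH6-OV library lay above every WT library. The shoot means of LOC_Os01g09990 (1.03 FPKM), LOC_Os08g36740 (1.29) and LOC_Os01g11910 (1.38) reached the filter of 1 FPKM only through bHLH6-OV. That they were tested and called higher there is therefore tied to the filter. At low Pi LOC_Os08g36740 had a log2 fold change of 0.60 (adjusted p = 0.033), which became 0.46 (adjusted p = 0.104) without WT low Pi replicate 1, and LOC_Os01g09990 and LOC_Os01g11910 did not pass there. None of the 4 passed in spx4 shoots.

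Phytoalexin genes were set beside the shoot results, since a bHLH factor of rice is known to switch on diterpenoid phytoalexin genes. Earlier results of these data were known when this list was chosen too, so it is no independent check. Of 4 named in the RefSeq table, 3 were tested in shoots, and all 3 diterpene cyclase and synthase genes rose in bHLH6-OV: CPS2 by a log2 fold change of 4.55 (adjusted p = 0.000125), KSL7 by 3.96 (adjusted p = 1.4e-06) and CPS4 by 4.05 (adjusted p = 2.66e-05). At low Pi 1 of the 3 rose, CPS2 by 2.11 (adjusted p = 0.00771), and none passed in spx4 shoots. In roots CPS4 alone was tested, and it rose at low Pi by 0.94 (adjusted p = 0.011).

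Of the 8 bHLH genes lower in bHLH6-OV shoots, LOC_Os01g38610 and LOC_Os04g41229 had the lowest log2 fold changes of FPKM + 1. LOC_Os01g38610 stood at 10.7, 14.4 and 13.4 FPKM in WT and 1.89, 4.38 and 3.73 in bHLH6-OV (3.83-fold lower, −1.71 ± 0.36, adjusted p = 0.00461). LOC_Os04g41229 stood at 35.2, 37.5 and 30.4 FPKM in WT and 10.9, 12.5 and 9.54 in bHLH6-OV (3.13-fold lower, −1.57 ± 0.13, adjusted p = 1.07e-05). Neither range reached that of WT. LOC_Os02g52190 fell from 2.53, 2.05 and 1.77 FPKM to 0.314, 0.827 and 0.656 (3.54-fold lower, −0.97, adjusted p = 0.0248), a call that ended without WT replicate 1 or 2 or bHLH6-OV replicate 1 or 3. LOC_Os07g05010, LOC_Os03g51580 and LOC_Os03g43810 fell by 0.81, 0.80 and 0.70 on the log2 scale, with adjusted p of 0.000278, 0.00021 and 0.000316.

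Low Pi gave the largest set of higher bHLH genes in shoots. LOC_Os04g41570 (chromosome 4, 24655105 to 24660071, minus strand) had the highest log2 fold change, from 11.2, 11.2 and 12.8 FPKM in WT at high Pi to 39.7, 82.2 and 79.6 at low Pi (5.74-fold, 2.35 ± 0.24, adjusted p = 1.54e-05). Its lowest low Pi library is replicate 1, the library that stood apart, and without it the log2 fold change was 2.69 (adjusted p = 1.27e-07). In spx4 shoots it stood at 21.4, 18.7 and 28.7 FPKM, above WT in every library but not past the threshold (0.89, adjusted p = 0.0906), and in bHLH6-OV at 8.02, 7.71 and 8.03, below WT in every library and not past it either (−0.51, adjusted p = 0.126).

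LOC_Os05g38140, the most abundant bHLH gene of roots, was raised in all 3 shoot comparisons. It stood at 33.4, 28.5 and 31.3 FPKM in WT shoots, 93.6, 76.8 and 79.3 in bHLH6-OV (1.39 ± 0.13, adjusted p = 1.9e-05), 55.6, 51.7 and 45.6 in spx4 (0.69 ± 0.13, adjusted p = 0.014) and 118, 146 and 158 at low Pi (2.13 ± 0.13, adjusted p = 3.33e-07). The 4 groups do not overlap: WT was lowest, then spx4, then bHLH6-OV, and low Pi was highest. The spx4 call ended without WT replicate 2 or 3 or spx4 replicate 1 or 2. At low Pi the shoot level reached 4.53-fold that of WT and overlapped with that of WT roots at high Pi (140 to 154 FPKM).

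LOC_Os07g43530 (chromosome 7, 26039678 to 26042226, minus strand) rose from a low level. It stood at 0.714, 0.32 and 0.558 FPKM in WT shoots, 6.54, 5.8 and 5.36 at low Pi (11.1-fold, 2.18 ± 0.23, adjusted p = 2.01e-05) and 3.34, 2.37 and 1.98 in bHLH6-OV (1.21 ± 0.23, adjusted p = 0.00248). In spx4 shoots 1 library of the 3 overlapped with WT, at 2.06, 1.13 and 0.527 FPKM (0.50, adjusted p = 0.327).

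**Figure D4:**
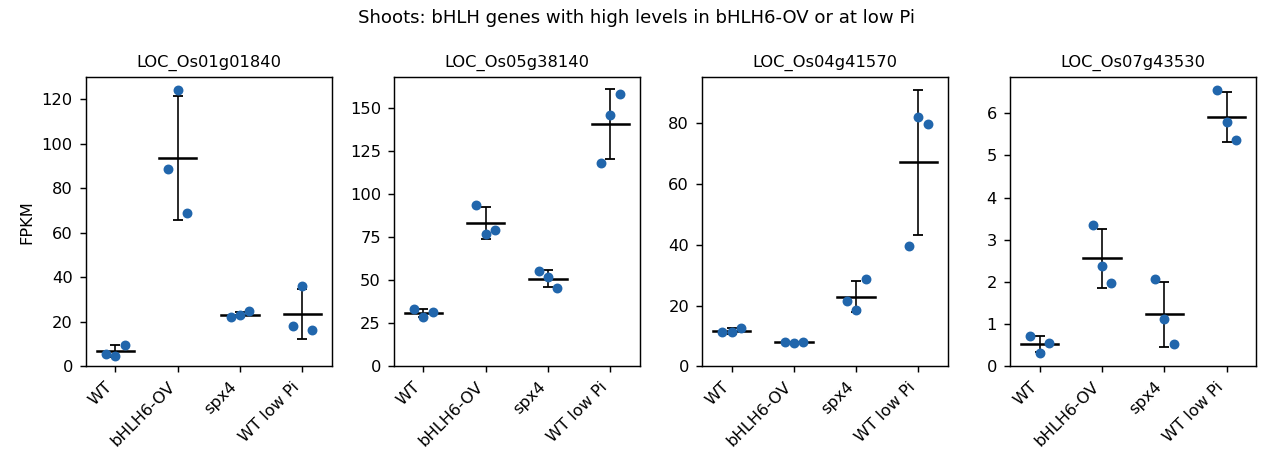
FPKM of 4 bHLH genes in each shoot library (points), with the mean (bar) and SD (whiskers) of 3 libraries per group; each panel has its own linear axis from 0. LOC_Os01g01840 is highest in bHLH6-OV (69 to 124), and the other 3 genes are highest at low Pi.

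Further bHLH genes rose at low Pi in shoots and did not pass as higher in bHLH6-OV shoots, a difference between the comparisons that was not tested. bHLH148 (LOC_Os03g53020), known for its link to jasmonate repressors and drought in rice, stood at 36.6, 44.3 and 31.2 FPKM in WT shoots and 75.6, 112 and 144 at low Pi (2.94-fold, 1.5 ± 0.24, adjusted p = 0.000363). LOC_Os01g50940 rose from 8.46, 8.63 and 8.82 FPKM to 31.3, 34.9 and 39.3 (1.90 ± 0.14, adjusted p = 1.56e-06), and LOC_Os08g38210 from 1.71, 2.04 and 2.08 to 8.04, 11.2 and 8.13 (1.77 ± 0.13, adjusted p = 1.43e-06). LOC_Os01g39330 rose from 6.86, 5.29 and 6.11 FPKM to 21.2, 21.6 and 23.7 (1.71 ± 0.11, adjusted p = 6.02e-07). In these 4 genes every low Pi library lay above every WT library. LOC_Os01g39330 went the other way in spx4 shoots, to 3.5, 3.74 and 3.02 FPKM (−0.68 ± 0.11, adjusted p = 0.00678), a call that held without any 1 library. LOC_Os01g50940 was lower in bHLH6-OV shoots, at 5.06, 5.66 and 6.05 FPKM (−0.55, adjusted p = 0.0127), though not under TPM scaling or without bHLH6-OV replicate 1.

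The 6 bHLH genes lower at low Pi in shoots included abundant shoot genes. LOC_Os12g41650 stood at 13.0, 12.5 and 13.4 FPKM in WT shoots and 3.43, 5.54 and 5.47 at low Pi (−1.29 ± 0.14, adjusted p = 2.31e-05). LOC_Os07g05010 stood at 31.6, 32.1 and 29.6 FPKM in WT shoots and 14.9, 11.4 and 13.1 at low Pi (−1.19 ± 0.11, adjusted p = 7.41e-06). LOC_Os08g39630 fell from 114, 119 and 117 FPKM to 67.9, 71.3 and 75.1 (−0.70 ± 0.09, adjusted p = 9.71e-05). The low Pi libraries of these 3 genes lay wholly below WT, and without WT low Pi replicate 1 the log2 fold changes were −1.10, −1.28 and −0.67. LOC_Os09g31300 fell from 57.5, 58.5 and 61.2 FPKM to 36.5, 36.5 and 36.8 (−0.68, adjusted p = 0.00279). LOC_Os03g56950, the most abundant bHLH gene of WT shoots, stood at 38.9, 108 and 130 FPKM at low Pi, with replicate 1 far below the other two (−0.93, adjusted p = 0.0535), and at −0.40 (adjusted p = 0.111) without that replicate.

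In spx4 shoots the remaining calls were LOC_Os02g47660, which rose from 2.24, 3.29 and 3.02 FPKM to 5.17, 4.51 and 4.31 (0.56, adjusted p = 0.0201), and LOC_Os07g35870, which fell from 23.3, 20.7 and 24.1 to 16.5, 16.4 and 15.3 (−0.47, adjusted p = 0.0126). The first was lost under TPM scaling, with the replicate block, in a fit to the 2 groups alone and without WT replicate 1 or 3 or spx4 replicate 1 or 2, and the second without WT replicate 1 or 3. LOC_Os02g47660 was also higher in bHLH6-OV shoots, at 5.32, 5.55 and 5.64 FPKM (0.77, adjusted p = 0.000435), and at low Pi, at 7.73, 6.94 and 7.17 (1.11, adjusted p = 1.3e-05). Each of its 3 groups lay wholly above WT.

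Set against each other in shoots, spx4 and bHLH6-OV differed in 29 of the 69 bHLH genes, 11 higher and 18 lower in spx4, beside 32% of all genes (18.3% higher and 13.8% lower). Under TPM scaling the median of all genes moved from 0.06 to −0.24, and the split became 4 higher and 25 lower. The count was 19 without bHLH6-OV replicate 2. The genes with the lowest values in spx4 relative to bHLH6-OV were LOC_Os09g34330 (−2.44 ± 0.29, adjusted p = 0.000147), LOC_Os01g09990 (−2.13 ± 0.18, adjusted p = 9.43e-06), LOC_Os01g01840 (−1.92 ± 0.31, adjusted p = 0.00109) and LOC_Os01g11910 (−1.86 ± 0.14, adjusted p = 3.18e-06). The highest were LOC_Os01g38610 (1.57 ± 0.36, adjusted p = 0.00777), LOC_Os04g41570 (1.4 ± 0.24, adjusted p = 0.00145) and LOC_Os04g41229 (1.28 ± 0.13, adjusted p = 5.1e-05). LOC_Os01g09990 and LOC_Os01g11910 reached the filter in shoots only through bHLH6-OV, so their low values in spx4 relative to it are tied to the filter.

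Some bHLH genes were called in opposite directions in roots and shoots at low Pi. Over the 62 bHLH genes tested in both tissues, 22 were lower in roots and 25 higher in shoots, and 7 were both, which is 31.8% of the first list and 28% of the second. Since 25 of all 62 were higher in shoots, genes lower in roots (7 of 22) were not more often among them. Over all 17437 genes tested in both tissues, 465 were lower in roots and higher in shoots, 16.9% of the 2751 lower in roots and 11.7% of the 3978 higher in shoots. Of the 4 bHLH genes higher in roots and the 6 lower in shoots, none was both. Over all genes 203 were both, 8.36% of those higher in roots, so none among 4 does not set the family apart. The difference between the tissues was itself tested over all 24 libraries: 54 of 97 bHLH genes passed, 10 with the higher value in roots and 44 with the lower, beside 37.9% of all genes (18.6% and 19.3%). The median difference, root minus shoot, was −0.55 over the bHLH genes and 0.04 over all genes.

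All 7 genes that fell in roots and rose in shoots passed the test of the difference. They were picked by opposite calls in the same libraries, so passing that test adds little to those calls. The largest differences were those of LOC_Os04g41570 (−2.83, adjusted p = 3.15e-07), LOC_Os07g43530 (−2.65, adjusted p = 2.05e-07) and LOC_Os05g38140 (−2.49, adjusted p = 4.31e-10). Their changes in roots were smaller than those in shoots: LOC_Os07g43530 went from 17.9, 15.2 and 16.6 FPKM to 11.5, 12 and 11.5 (−0.47, adjusted p = 0.00307) and LOC_Os05g38140 from 154, 140 and 152 to 110, 120 and 117 (−0.36, adjusted p = 0.00618). The low Pi root libraries of both genes lay wholly below WT. The other 4 were LOC_Os01g14110 (−1.91), LOC_Os07g28890 (−1.65), LOC_Os02g47660 (−1.45) and LOC_Os08g08160 (−0.78), of which the first 2 and the last are named here because of their opposite calls. The root calls of LOC_Os02g47660 and LOC_Os04g41570 ended without 1 WT library, replicate 2 and replicate 1 in turn.

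**Figure D5:**
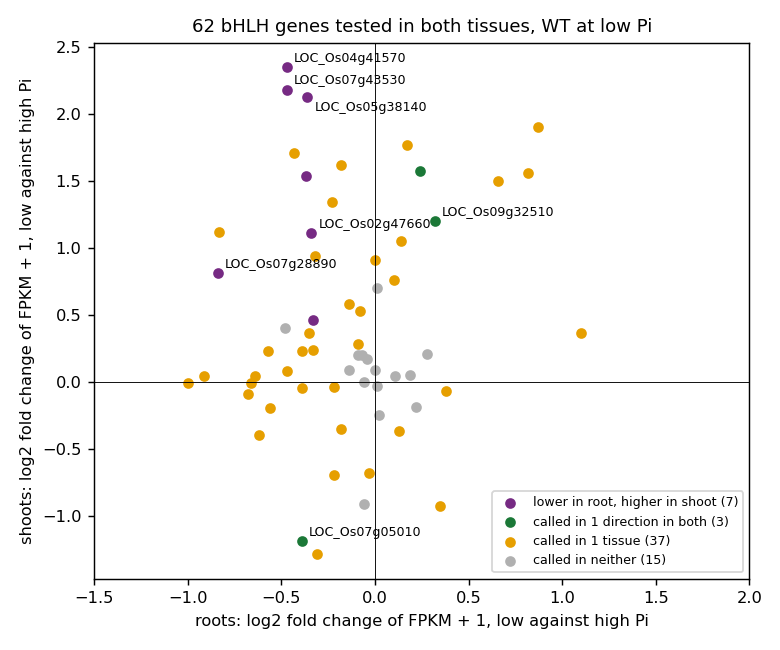
Log2 fold change of FPKM + 1 at low against high Pi in WT shoots (vertical) and WT roots (horizontal) for the 62 bHLH genes tested in both tissues, 1 point per gene, n = 3 libraries per group. Purple points were called lower in roots and higher in shoots (7), green points in 1 direction in both tissues (3), orange points in 1 tissue (37) and grey points in neither (15). The lower right quadrant holds no gene called in both tissues, where only 4 genes were called higher in roots and 6 lower in shoots.

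Of the 62 bHLH genes tested in both tissues, 2 were called higher in both at low Pi and 1 lower in both. The matching share over all genes is not given here. LOC_Os09g32510 rose in roots from 15.1, 15.7 and 14.1 FPKM to 20.5, 16.7 and 19.6 (0.32, adjusted p = 0.0183) and in shoots from 8.3, 8.25 and 7.63 to 21.5, 23.5 and 15.2 (1.20 ± 0.15, adjusted p = 9.1e-05), the root call being lost without WT replicate 3 or WT low Pi replicate 1 or 3. LOC_Os11g38870 was the other gene higher in both. LOC_Os07g05010 was lower in both, with 1.57, 2.15 and 1.57 FPKM in low Pi roots against 2.5, 2.78 and 2.54 in WT (−0.39, adjusted p = 0.0334), a root call lost without any 1 of 5 libraries.

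bHLH6-OV also moved some bHLH genes in opposite directions in the tissues. LOC_Os04g41229, LOC_Os07g05010 and LOC_Os10g40740 were higher in bHLH6-OV roots and lower in bHLH6-OV shoots, and their differences, root minus shoot, were 2.06 (adjusted p = 4.67e-08), 1.41 (adjusted p = 5.21e-06) and 1.10 (adjusted p = 2.09e-05). These 3 genes are 25% of the 12 bHLH genes tested in both tissues that were higher in roots and 42.9% of the 7 lower in shoots. Their opposite calls come from the same libraries as the test of the difference, so passing that test adds little. Over all 17437 genes, 213 were higher in roots and lower in shoots, 16.1% of the 1319 higher in roots and 7.05% of the 3022 lower in shoots. LOC_Os04g41229 stood at 52.5, 51.6 and 54.6 FPKM in WT roots and 71.7, 68.2 and 85.2 in bHLH6-OV roots (0.49 ± 0.10, adjusted p = 0.00586), wholly above WT. LOC_Os10g40740 stood at 78.5, 85.2 and 101 FPKM in bHLH6-OV shoots, wholly below its WT range of 125 to 132 (−0.54 ± 0.10, adjusted p = 0.00179). LOC_Os01g67480 and LOC_Os11g38870 were higher in both tissues, and LOC_Os02g52190 was lower in both, without a matching share over all genes. The bHLH6-OV difference between tissues passed for 40 of 97 bHLH genes, 15 higher and 25 lower in roots, beside 29.4% of all genes, and TPM scaling moved the median of all genes from 0.01 to −0.14 and the split to 9 and 28. For spx4 it passed for 5, all lower in roots, beside 1.83% of all genes (0.748% higher and 1.08% lower).

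LOC_Os02g52190, the gene lower in both tissues of bHLH6-OV, is mainly a root gene. It stood at 28.1, 35.9 and 34.2 FPKM in WT roots and 18.5, 20.2 and 12.8 in bHLH6-OV roots (1.9-fold lower, −0.91 ± 0.16, adjusted p = 0.00295). At low Pi its root libraries held 29.0, 31.7 and 38.2 FPKM, which overlap with WT (0.01, adjusted p = 0.977). LOC_Os01g67480 stood at 30.9, 33.4 and 32.5 FPKM in WT shoots and 50.5, 68.9 and 60.6 in bHLH6-OV shoots (1.86-fold higher, 0.86 ± 0.16, adjusted p = 0.00217).

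Of the 11 named genes, 4 were tested in roots and 1 of those in shoots. Besides RAI1, APG and bHLH148, this was bHLH004 (LOC_Os10g39750), at 5.38, 5.88 and 5.96 FPKM in WT roots and 4.34 to 7.81 in the other root groups, with no call. bHLH148 stood at 18.6, 16.9 and 13.7 FPKM in WT roots and 27.6, 21.1 and 58.9 in bHLH6-OV roots, where replicate 3 was far above the others and the difference did not pass (0.96, adjusted p = 0.075). The genes known from the anther tapetum stood under 1 FPKM in every group mean: TDR (LOC_Os02g02820) reached 0.819 ± 0.290 in spx4 shoots, UDT1 (LOC_Os07g36460) 0.540 ± 0.375 in low Pi shoots, EAT1 (LOC_Os04g51070) 0.310 ± 0.0498 in WT roots and TIP2 (LOC_Os01g18870) 0.0526 ± 0.0276 in WT roots (SD, n = 3). LAX1 (LOC_Os01g61480), known from axillary meristems, held 0 reads in all 24 libraries. bHLH080 (LOC_Os08g42470) and bHLH081 (LOC_Os09g33580) reached 0.283 ± 0.0867 and 0.0916 ± 0.0645 in their highest groups. These 7 genes fell under the filter of 1 FPKM and were not tested in either tissue. EAT1 held no read in the 3 WT shoot libraries at high Pi and 26 reads over the 3 at low Pi (0.103 to 0.318 FPKM).

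Of the 55 bHLH genes tested in neither tissue, 48 stayed under 1 FPKM in every group mean, 23 of them under 0.1, and 9 of the 157 held no read at all. The other 7 reached 1 FPKM in at least 1 group. LOC_Os06g30090 had the highest level of these, 1.8 ± 0.356 FPKM in bHLH6-OV roots, and LOC_Os01g33400 reached 1.41 ± 0.284 in bHLH6-OV shoots. These were not tested, since the mean over their tissue stayed below 1 FPKM.

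bHLH genes lay near each other in 8 places, with 18 genes within 50 kb of the next. Where neighbours share sequence, reads may have been split between them, and the strand setting of the counting is not given in the sources used here, so reads of a gene and of one on its other strand cannot be told apart. On chromosome 1, LOC_Os01g09900, LOC_Os01g09930 and LOC_Os01g09990 lie within 55.4 kb. Of these LOC_Os01g09990 was tested in both tissues and the other two in neither, and LOC_Os01g09930 had its highest mean, 1.05 ± 0.875 FPKM, in low Pi shoots.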

How the data were processed

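Messenger RNA libraries of rice roots and shoots were prepared with a NEBNext Ultra kit, per the labels' protocols. The authors deposited 1 table of FPKM per gene and library. The submitters' processing notes name HISAT2, StringTie, featureCounts 1.5.0-p3 and DESeq2. The genome build and the strand setting are not given in the sources used here.

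Low FPKM values were whole multiples of 1 read, so reads were rebuilt from FPKM and gene length: 100% of values were whole within 0.01 reads. The rebuilt totals were 21.0 to 29.6 M reads per library. The divisor behind the deposited FPKM was 0.733 to 1.3 times those totals, so FPKM is not scaled to the assigned reads, and TPM rescaling was tried as an alternative. Replicates differed beyond counting noise in every group (chi-square per degree of freedom 3.53 to 127), and none was treated as a duplicate. The labels call the replicates biological, and each library is a pool of seedlings.

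Members were found by the description or the family column. The members and lists were chosen with earlier results of these data known. Tests used limma 3.58.1 (R 4.3.3, robust empirical Bayes with a trend) on log2(FPKM + 1), over all genes with a mean of at least 1 FPKM in the libraries fitted: 22090 in roots, 19990 in shoots and 22980 over both. The 12 libraries of a tissue, or all 24 for comparisons between tissues, shared 1 estimate of the spread. P-values were Benjamini-Hochberg adjusted over all genes tested, with a threshold of 0.05. The script was tested on simulated data. Errors beside log2 fold changes are SE, and those beside FPKM are SD. Folds are ratios of mean FPKM.

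Genes were named where the RefSeq table gave a symbol, where they were among the 5 highest or 5 lowest called log2 fold changes with groups that do not overlap in a comparison with WT, among the 5 most abundant of a tissue, called in 1 direction in both tissues, or called in all 3 comparisons of a tissue. Genes named for opposite calls, for their position or among untested genes were chosen after their values were seen. Of the 157 members, 140 could be placed in the RefSeq table, by position among neighbouring genes, and 11 had a name there.

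Same-numbered replicates deviated together, with all 3 correlations over 0.1, in 1 pair of groups, bHLH6-OV and spx4 roots (0.23, 0.29 and 0.48, against −0.36 to 0.19 for unlike numbers). WT at high Pi and bHLH6-OV had weaker correlations that also lay above those of unlike numbers. These were 0.15, 0.16 and 0.08 in roots (unlike −0.12 to −0.03) and 0.09, 0.16 and 0.21 in shoots (unlike −0.2 to 0.07). Any such pairing comes from the values, since the labels state none. Alternatives were a pseudocount of 0.1, a filter of 0.1 FPKM or none, TPM and median-of-ratios scaling, voom on rebuilt reads, fits to the 2 groups alone, a replicate block, and each library left out. Python 3.11.15, pandas 2.3.3 and matplotlib 3.10.9 were used for the rest. No sequence was printed, since none was given for these genes.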

Additional observations from a re-analysis of the deposited data

Results flagged for a closer look

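Named bHLH genes whose change differed between roots and shoots by at least 2-fold, with the difference itself past the threshold in limma over all 24 libraries (adjusted p under 0.05), are given as log2 differences, root change minus shoot change. For bHLH6-OV against WT, 16 named genes met this. The difference was negative for LOC_Os01g01840 (−3.67), LOC_Os09g34330 (−2.67), LOC_Os01g09990 (−2.39), LOC_Os01g11910 (−2.08), LOC_Os04g31290 (−1.36), APG (−1.3), LOC_Os07g43530 (−1.26) and LOC_Os05g38140 (−1.24). It was positive for LOC_Os10g40740 (1.1), LOC_Os04g41570 (1.18), bHLH148 (1.22), LOC_Os07g05010 (1.41), LOC_Os01g50940 (1.52), LOC_Os01g56690 (1.69), LOC_Os01g38610 (1.81) and LOC_Os04g41229 (2.06). A further 11 named genes passed with smaller differences.

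For spx4 against WT, 3 named genes met it, LOC_Os01g01840 (−1.67), LOC_Os04g31290 (−1.16) and APG (−1.07), and 2 more passed with smaller differences. The call of LOC_Os01g01840 ended with a pseudocount of 0.1 and with voom on rebuilt reads.

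For low against high Pi in WT, 17 named genes met it. The difference was negative for LOC_Os04g41570 (−2.83), LOC_Os07g43530 (−2.65), LOC_Os05g38140 (−2.49), LOC_Os01g39330 (−2.14), APG (−2.12), LOC_Os04g31290 (−2.04), LOC_Os09g28210 (−1.94), LOC_Os01g01840 (−1.71), LOC_Os08g38210 (−1.6), LOC_Os02g47660 (−1.45), LOC_Os11g38870 (−1.34), LOC_Os09g34330 (−1.28), LOC_Os07g39940 (−1.23) and LOC_Os01g11910 (−1.0). It was positive for LOC_Os09g29360 (1.03), LOC_Os07g47960 (1.13) and LOC_Os03g56950 (1.28). A further 9 passed with smaller differences. Some genes listed for the 3 comparisons were close to absent in 1 tissue, where log2 of FPKM + 1 stayed near 0. Their differences repeat the change in the other tissue and are no separate finding. These include LOC_Os01g01840 (mean 0.0409 FPKM in roots) and, in shoots, LOC_Os04g31290 (0.00281), LOC_Os07g47960 (0.0112) and LOC_Os07g39940 (0). The low Pi difference of APG joins its fall in roots to a rise in shoots, from a mean of 0.16 to 2.01 FPKM. The bHLH6-OV differences of bHLH148 and LOC_Os01g50940 ended without any 1 of 9 and 10 libraries, under TPM scaling, with no filter and with voom, and bHLH6-OV root replicate 3 was the highest root library of both genes in that group.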

How the results depend on the processing

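Of 221 calls of named genes, 151 held under every alternative and 70 ended under at least 1. The count of calls moved beyond 1.5 times in few settings, and the cause was not tested. For spx4 against bHLH6-OV in roots, the main count of 9 became 5 with the replicate block, 5 in a fit to the 2 groups alone and 17 with both, the last chosen after seeing the data. The block moved no other count that far. For spx4 shoots the main 5 became 10 in a fit to the 2 groups. The spx4 difference between tissues, 5, became 8 with a filter of 0.1 FPKM, 8 with no filter, 3 under TPM and 2 with voom on rebuilt reads, and the bHLH6-OV difference, 40, became 22 with voom. Under voom, RAI1 (LOC_Os03g04310) reversed its bHLH6-OV difference between tissues, from −0.68 to 0.67 (adjusted p = 0.642).

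With each library left out in turn, counts in roots ran from 18 to 31 for bHLH6-OV (18 without WT replicate 2 or 3 or bHLH6-OV replicate 1), 5 to 8 for spx4, 31 to 45 at low Pi and 2 to 13 for spx4 against bHLH6-OV (2 without spx4 replicate 2, 4 without spx4 replicate 3 or bHLH6-OV replicate 1). In shoots they ran from 23 to 33 for bHLH6-OV, 2 to 10 for spx4, 34 to 41 at low Pi and 19 to 37 for spx4 against bHLH6-OV. The spx4 shoot count was 2, 3 and 2 without WT replicates 1, 2 and 3, 3 and 2 without spx4 replicates 1 and 2, and 10 without WT low Pi replicate 1. WT roots against shoots gave 88 to 91. The differences between tissues gave 31 to 42 for bHLH6-OV, 4 to 10 for spx4 and 51 to 59 for low Pi. Genes with a mean under 1 FPKM entered only the fits with a lower filter or none.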
